A study of Mus musculus with 6 samples.

Results

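The 8 genes described here encode the core of lipolysis, the stepwise release of fatty acids and glycerol from stored triglyceride, in refed epididymal white adipose tissue (WAT). They are *G0s2*, *Pnpla2*, *Abhd5*, *Lipe*, *Mgll*, *Pde3b*, *Aqp7* and *Lipa*, found by their symbols among the 24346 genes of the deposited table, and each has 1 entry there. They were selected on their FPKM (fragments scaled to the exon length of a gene and to the mapped fragments of a library) in the 2 genotypes and on the ratio of *G0s2* to *Pnpla2*, which were known beforehand. The differences between the genotypes in these 8 genes are therefore given as a description, without a test.

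The tissue was taken from 6 mice, 3 of each genotype, that were 24 weeks old and had been fasted over 24 h before 6 h of refeeding. A stranded library of polyadenylated RNA was read from both ends for each mouse. In Armc5 flox, LoxP sites lie on both sides of the stretch from exon 2 to exon 3 of *Armc5*, a gene for an adaptor of a CUL3 ubiquitin ligase, and no Cre is stated. AdArmc5 KO carry this floxed allele with *Adipoq-Cre*, and in both genotypes *CAG-FLPe* had excised the *lacZ* and NeoR cassettes. *Adipoq-Cre* acts in adipocytes, whereas the RNA came from all cells of the tissue, so fewer adipocytes and less RNA per adipocyte cannot be told apart in these libraries.

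Fasting drives lipolysis through noradrenaline, cyclic AMP and protein kinase A, and refeeding stops it through insulin. On the surface of the lipid droplet, the lipase encoded by *Pnpla2* (ATGL) takes the first fatty acid from triglyceride, the product of *Lipe* (hormone-sensitive lipase) takes the next from diglyceride, and that of *Mgll* takes the last from monoglyceride. ABHD5 (CGI-58) activates ATGL, and G0S2 binds and inhibits it. PDE3B degrades cyclic AMP when insulin is present, AQP7 lets glycerol leave the cell, and the acid lipase encoded by *Lipa* hydrolyses triglyceride and cholesteryl esters inside lysosomes.

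Each library held 25320752 to 38311573 fragments, and the 8 genes each had 3518 to 144685 fragments in a library, for a counting SD of at most 1.69% of the value. *Armc5* was at 5.12, 5.66 and 5.58 FPKM in Armc5 flox and at 3.66, 4.48 and 5.82 FPKM in AdArmc5 KO. These values count the whole gene, not only the stretch between the LoxP sites, in all cells of the tissue. They cannot settle the genotype of a library. Unlike the other AdArmc5 KO libraries, the library labelled AdArmc5 KO replicate 3 lay above every Armc5 flox library. The same library held 3122 FPKM of *Akr1b7* and 685 FPKM of *Crisp1*, genes of male reproductive ducts, against at most 17.4 and 2.53 FPKM elsewhere. Armc5 flox replicate 1 and AdArmc5 KO replicate 2 held 157 and 136 FPKM over 8 ciliated cell markers, against 2.42 to 4.35 FPKM in the other 4 libraries. These libraries also had the highest values of the epithelial markers *Epcam*, *Krt8*, *Krt18*, *Cdh1* and *Krt19*. *Epcam* was at 45.1 and 40.3 FPKM in them, at 9.19 FPKM in the library labelled AdArmc5 KO replicate 3 and at most 0.687 FPKM elsewhere. Epithelial transcripts were thus not confined to the library labelled AdArmc5 KO replicate 3. Adipocyte markers were abundant in every library, with 9 markers summing to 32655 to 46171 FPKM in Armc5 flox and 25047 to 37566 FPKM in AdArmc5 KO. The mean in AdArmc5 KO was higher for 4 of these 9 markers and lower for 5.

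To show where the transcripts of the inhibitor and of its target lipase start, the 250 bases before each start are printed from the RefSeq table of GRCm38.p6, 5′ to 3′ on the strand of the gene, with matches to CACCC in capitals. *G0s2* (NCBI Gene 14373) lies on the minus strand of chromosome 1 from 193272160 to 193273188, and its upstream bases are chr1:193273189-193273438. *Pnpla2* (NCBI Gene 66853) lies on the plus strand of chromosome 7 from 141455188 to 141460743, and its upstream bases are chr7:141454938-141455187.
G0s2: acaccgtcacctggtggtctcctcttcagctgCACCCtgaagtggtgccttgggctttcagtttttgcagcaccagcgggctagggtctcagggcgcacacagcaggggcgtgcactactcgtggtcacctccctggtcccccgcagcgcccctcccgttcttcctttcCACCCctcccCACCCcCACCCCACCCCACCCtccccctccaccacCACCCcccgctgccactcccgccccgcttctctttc
Pnpla2: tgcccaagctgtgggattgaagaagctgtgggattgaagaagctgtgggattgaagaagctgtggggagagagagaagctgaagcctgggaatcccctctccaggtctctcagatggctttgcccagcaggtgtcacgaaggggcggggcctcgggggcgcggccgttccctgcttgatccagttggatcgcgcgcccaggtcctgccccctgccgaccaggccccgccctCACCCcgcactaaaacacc
CACCC, a short C-rich run, was picked after the *G0s2* sequence had been seen. Counted on both strands, it occurred 7 times before *G0s2* and 1 time before *Pnpla2*, and 0.0974% of the 32851 upstream windows of that length in the table held as many as *G0s2*. At least 1 match was found in 52.0% of all windows, so the single match of *Pnpla2* is no mark of that gene. Of the 8 genes, 7 had a window in the table, with 10 windows between them, and *Pde3b* had none. Apart from *G0s2*, these windows held 0 or 1 match.

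CACGTG, an E-box read by basic helix-loop-helix factors, occurred before 2 of the 7 genes, the lipase genes *Mgll* and *Lipe*. These 26-base stretches carry it in capitals, from chr6:88724358-88724383 on the plus strand and chr7:25396127-25396152 on the minus strand.
Mgll: gggccgggcaCACGTGgggccccggc
Lipe: cagggacgacCACGTGagggggcgga
Its first base lies 44 bases before 1 of 2 listed starts in *Mgll* and 155 bases before 1 of 2 in *Lipe*, and 6.02% of all windows hold at least 1 match. That share is of windows, whereas a gene is counted if any of its windows matches, so the counts of genes are not comparable with it. A sterol regulatory element was also searched on both strands, and it occurred before 0 of the 7 genes and in 0.192% of all windows. A match shows only that these letters are present, and binding was not measured here.

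*G0s2*, the inhibitor of ATGL, was the gene of the 8 that differed most between the genotypes. Replicates 1, 2 and 3 had 516, 602 and 1148 FPKM in Armc5 flox, and 283, 242 and 362 FPKM in AdArmc5 KO. All AdArmc5 KO values were under the lowest Armc5 flox value, and Armc5 flox replicate 3 stood well above the other Armc5 flox libraries. The mean was 755 ± 343 FPKM in Armc5 flox and 296 ± 60.8 FPKM in AdArmc5 KO (SD, n = 3 each), a ratio of 0.391. On the log2(FPKM + 1) scale the difference was −1.28 (SE 0.34), the 19th lowest among the 12670 genes tested. The size of this difference rested in part on a single library, since it was −0.93 without Armc5 flox replicate 3 and between −1.51 and −1.15 without any other library. Without the library labelled AdArmc5 KO replicate 3 it was −1.43, and without both ciliated cell libraries −1.37. With the mean of 5 adipocyte markers (*Adipoq*, *Lep*, *Retn*, *Pparg* and *Cfd*) as a covariate it was −1.20.

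*G0s2* overlaps the annotated span of *Lamb3*, a laminin gene on the other strand, as *Abhd5*, *Lipe* and *Mgll* overlap noncoding genes, and the strand setting of the authors' counting is not given in the sources used here. *Lamb3* was at 1.33, 2.29 and 1.44 FPKM in Armc5 flox and at 6.87, 6.02 and 1.70 FPKM in AdArmc5 KO. Its highest value was far below the lowest value of *G0s2*, and its groups overlapped.

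*Pnpla2*, which encodes ATGL, had the highest level of the 8 genes in every library, and by its mean FPKM ranked 25th among the genes tested. The 3 values were 1291, 1658 and 1589 FPKM in Armc5 flox and 1258, 1110 and 1451 FPKM in AdArmc5 KO. The groups overlapped, because the library labelled AdArmc5 KO replicate 3 lay above Armc5 flox replicate 1. The mean was 1513 ± 195 FPKM in Armc5 flox and 1273 ± 171 FPKM in AdArmc5 KO (SD, n = 3 each), with a log2 difference of −0.25 (SE 0.22). Without either of these overlapping libraries the log2 difference was −0.36 or −0.35, and the remaining groups did not overlap.

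**Figure D1:**
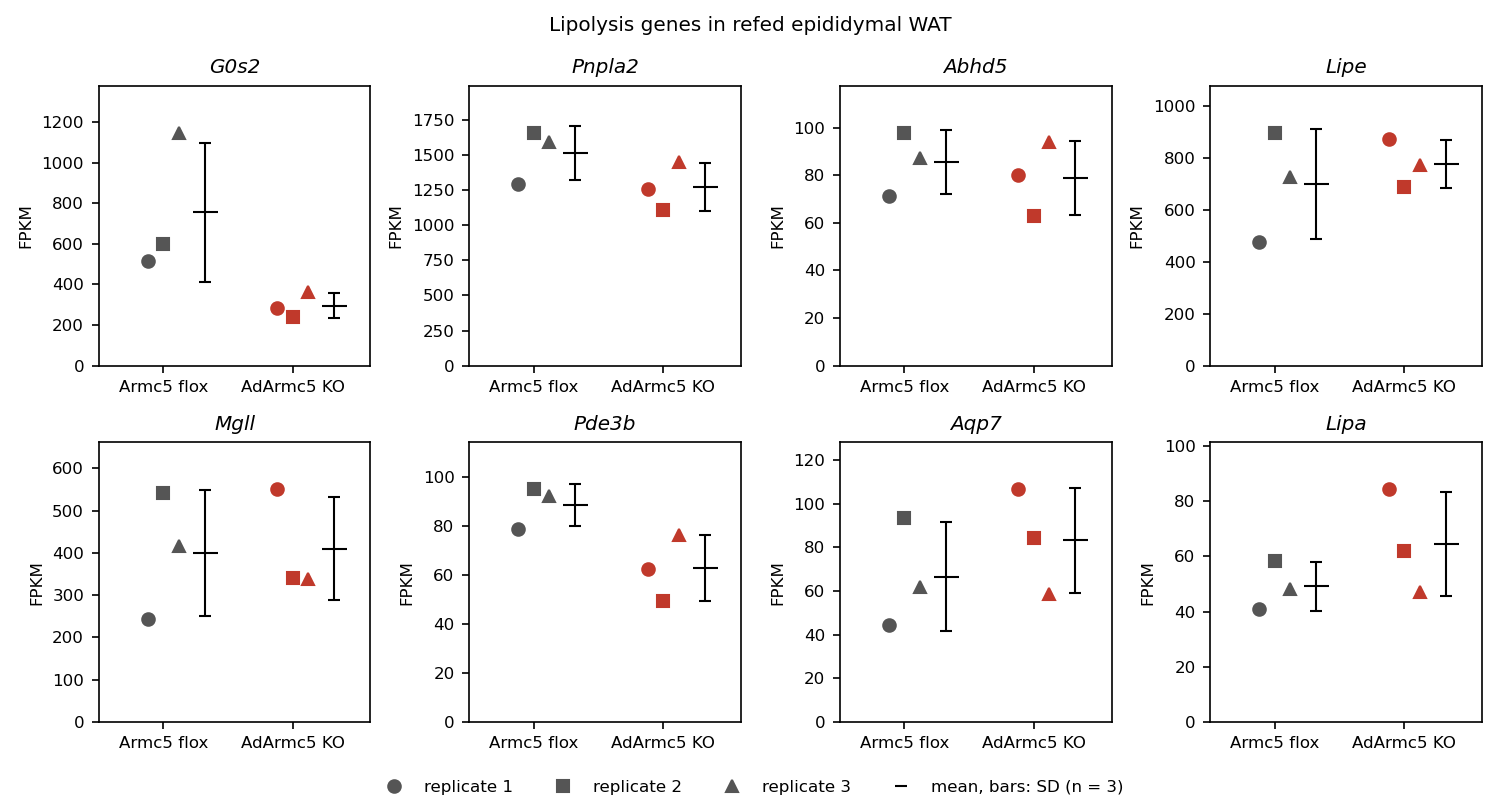
FPKM (vertical axes, linear from 0) of the 8 lipolysis genes in 3 Armc5 flox (grey) and 3 AdArmc5 KO (red) libraries. Point shapes mark the replicate number, which is not stated to pair the mice, and the lines give the mean with its SD. The groups are apart for *G0s2* (242 to 362 against 516 to 1148 FPKM) and *Pde3b* (49.6 to 76.6 against 79.1 to 95.3 FPKM), and overlap for the other 6 genes.

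Relative to *Pnpla2* in the same library, *G0s2* was at 0.400, 0.363 and 0.722 in Armc5 flox and at 0.225, 0.218 and 0.249 in AdArmc5 KO. The 3 AdArmc5 KO ratios lay close together and below every Armc5 flox ratio. The mean ratio was 0.495 ± 0.198 in Armc5 flox and 0.231 ± 0.0164 in AdArmc5 KO (SD, n = 3 each), a log2 difference of −1.03. It was −0.72 without Armc5 flox replicate 3, −1.09 without the library labelled AdArmc5 KO replicate 3 and −1.11 without both ciliated cell libraries. Of the other 12669 genes tested, 0.308% had a ratio to *Pnpla2* whose groups were apart with AdArmc5 KO lower, and 9.54% one whose groups were apart with AdArmc5 KO higher. Of the 7 ratios to *Pnpla2* among the 8 genes, those of *G0s2* and *Pde3b* were apart with AdArmc5 KO lower and 0 with AdArmc5 KO higher. Since the genes were chosen with the ratio of *G0s2* to *Pnpla2* known, nothing is read from these shares.

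Other denominators gave the same order for some genes and not for others. The ratio of *G0s2* to each of the other 7 genes was lower in every AdArmc5 KO library, with log2 differences from −1.65 (to *Lipa*) to −0.77 (to *Pde3b*). With any gene tested as the denominator, 79.2% of genes gave the same order, so that 7 of 7 says little about these denominators. Of the 8 adipocyte markers outside these genes, 5 gave it too and 3 did not. The log2 difference was −1.45 to *Adipoq*, which encodes adiponectin, −1.30 to *Plin1*, which encodes the perilipin that holds ABHD5 on the droplet, and −0.54 to *Cidec*. The groups overlapped with *Fabp4*, *Lep* and *Cfd* as the denominator, at −1.07, −1.87 and −0.23.

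*Abhd5* (NCBI Gene 67469, chr9:122351616-122381524, plus strand), the co-activator of ATGL, was at 71.2, 97.9 and 87.2 FPKM in Armc5 flox and at 80.0, 62.7 and 93.8 FPKM in AdArmc5 KO. The groups overlapped, with means of 85.4 ± 13.5 and 78.8 ± 15.6 FPKM (SD, n = 3 each) and a log2 difference of −0.12 (SE 0.20). Its level followed that of *Pnpla2* closely. The ratio of *Abhd5* to *Pnpla2* was 0.0551, 0.0590 and 0.0549 in Armc5 flox and 0.0636, 0.0565 and 0.0647 in AdArmc5 KO, so the highest was 1.179 times the lowest.

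**Figure D2:**
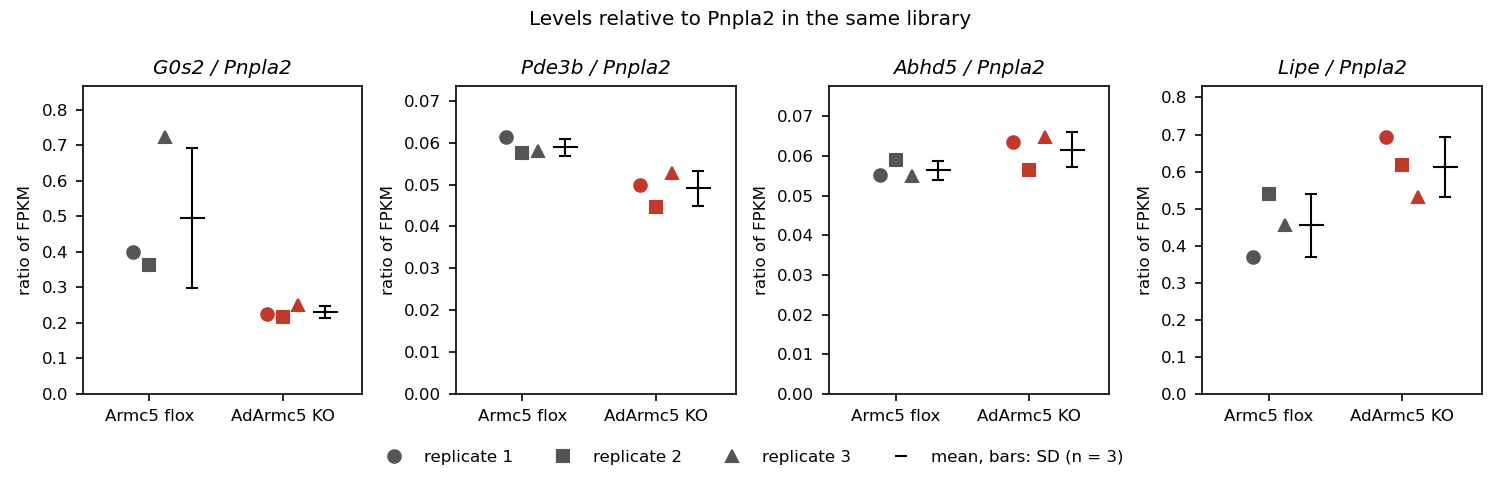
Ratio of the FPKM of *G0s2*, *Pde3b*, *Abhd5* and *Lipe* to that of *Pnpla2* in the same library (vertical axes, linear from 0), with 3 Armc5 flox libraries in grey, 3 AdArmc5 KO libraries in red, point shapes for the replicate number and lines for the mean with its SD. The ratios of *G0s2* (0.218 to 0.249 against 0.363 to 0.722) and *Pde3b* do not overlap between the genotypes, and those of *Abhd5* and *Lipe* do.

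*Lipe* (NCBI Gene 16890, chr7:25379527-25398486, minus strand), the gene of hormone-sensitive lipase, did not share the lower level of *G0s2*. Its FPKM was 477, 896 and 725 in Armc5 flox and 871, 686 and 770 in AdArmc5 KO. The AdArmc5 KO values fell within the range of Armc5 flox, and the lowest value was that of Armc5 flox replicate 1. The mean was 699 ± 211 FPKM in Armc5 flox and 776 ± 92.9 FPKM in AdArmc5 KO (SD, n = 3 each), and the log2 difference of 0.19 (SE 0.28) turned to −0.06 without Armc5 flox replicate 1. A noncoding gene on the other strand within its span, *4732471J01Rik*, was at 4.54 to 7.45 FPKM.

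*Mgll* (NCBI Gene 23945, chr6:88724412-88828360, plus strand), the gene of monoglyceride lipase, was at 244, 542 and 415 FPKM in Armc5 flox and at 551, 341 and 338 FPKM in AdArmc5 KO. The groups overlapped, and the AdArmc5 KO values began higher but ended near the same value as those of Armc5 flox. The means were 400.1 ± 150 FPKM in Armc5 flox and 410.3 ± 122 FPKM in AdArmc5 KO (SD, n = 3 each). The log2 difference of 0.07 (SE 0.36) had no stable sign, at −0.25 without Armc5 flox replicate 1 and 0.33 without Armc5 flox replicate 2. The enzymes of the last steps, *Lipe* and *Mgll*, kept a ratio of 1.58 to 2.28 to each other in the 6 libraries.

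*Pde3b* (NCBI Gene 18576, chr7:114415222-114537938, plus strand), whose product breaks down cyclic AMP under insulin, was the other gene whose groups were apart. It was at 79.1, 95.3 and 92.2 FPKM in Armc5 flox and at 62.7, 49.6 and 76.6 FPKM in AdArmc5 KO. The highest AdArmc5 KO value, from the library labelled AdArmc5 KO replicate 3, was close to the lowest Armc5 flox value, from replicate 1. The mean was 88.9 ± 8.61 FPKM in Armc5 flox and 62.9 ± 13.5 FPKM in AdArmc5 KO (SD, n = 3 each), a ratio of 0.708 and a log2 difference of −0.51 (SE 0.19). It ranged from −0.66 without the library labelled AdArmc5 KO replicate 3 to −0.35 without AdArmc5 KO replicate 2, and was −0.40 with the adipocyte markers as a covariate. Relative to *Pnpla2*, *Pde3b* was at 0.0613, 0.0575 and 0.0580 in Armc5 flox and at 0.0498, 0.0447 and 0.0528 in AdArmc5 KO, again without overlap and with a log2 difference of −0.27.

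*Aqp7* (NCBI Gene 11832, chr4:41033074-41048237, minus strand), the gene of the glycerol channel, was at 44.4, 93.6 and 61.7 FPKM in Armc5 flox and at 107, 84.2 and 58.8 FPKM in AdArmc5 KO. Its groups overlapped, with means of 66.6 ± 24.96 and 83.3 ± 23.98 FPKM (SD, n = 3 each). The log2 difference of 0.34 (SE 0.33) was 0.09 without Armc5 flox replicate 1 and 0.06 without both ciliated cell libraries.

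*Lipa* (NCBI Gene 16889, chr19:34492316-34527474, minus strand), the gene of lysosomal acid lipase, was at 41.0, 58.4 and 48.0 FPKM in Armc5 flox and at 84.5, 62.0 and 47.1 FPKM in AdArmc5 KO. The groups overlapped through the library labelled AdArmc5 KO replicate 3, and the means were 49.1 ± 8.78 and 64.5 ± 18.8 FPKM (SD, n = 3 each). Its log2 difference was 0.36 (SE 0.25), 0.56 without the library labelled AdArmc5 KO replicate 3 and 0.15 without AdArmc5 KO replicate 1. Macrophages also express *Lipa*, and 10 macrophage markers, 9 of them with a higher mean in AdArmc5 KO, summed to 1002.5, 1941 and 1021 FPKM in Armc5 flox and to 2208, 1437 and 1261 FPKM in AdArmc5 KO. The ratio of *Lipa* to *Cd68*, a macrophage lysosomal gene, was 0.729, 0.616 and 0.774 in Armc5 flox and 0.570, 0.519 and 0.474 in AdArmc5 KO, lower in every AdArmc5 KO library, whereas the ratio to *Csf1r*, the receptor gene for a macrophage growth factor, overlapped. Of the 10 macrophage markers, only *Cd68* and *Csf1r* were used as denominators, and they gave different results. A lower level of *Lipa* per macrophage is therefore not read from these ratios. The part of macrophages in the level of *Lipa* was not tested further.

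Of the 8 genes, 4 had a log2 difference below 0 and 4 above 0, with a median of −0.02 against −0.03 over all 12670 genes tested. All AdArmc5 KO values were under all Armc5 flox values for 2 of the 8 genes, as for 5.26% of all genes tested, and over them for 0 of the 8, as for 3.54% of all genes. The paper, by another procedure, lists genes of this RNA-seq that passed a false discovery rate of 0.05 and a fold change cutoff. In the limma fit used here, over all genes, 0 genes had an adjusted p under 0.05 (0%), among them 0 of the 8. At an unadjusted p under 0.05 there were 425 genes (3.35%), 1.18% of all genes with the lower and 2.18% with the higher level in AdArmc5 KO, among them 2 of the 8, *G0s2* and *Pde3b*, both with the lower level. Since the 8 genes were chosen with this contrast known, nothing is read from their share.

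By level, the 8 genes fell into 2 tiers. *Pnpla2* had a mean of 1393 FPKM over the 6 libraries, followed by *Lipe* at 737, *G0s2* at 525 and *Mgll* at 405 FPKM. The lower tier held *Abhd5* at 82.1, *Pde3b* at 75.9, *Aqp7* at 74.9 and *Lipa* at 56.8 FPKM. The ranges over libraries were apart between *Pnpla2* and *Lipe* and between *Mgll* and *Abhd5*, and overlapped for every other pair of neighbours in this order. Within a library, *G0s2* ranked 2, 3 and 2 among the 8 in Armc5 flox and 4, 4 and 3 in AdArmc5 KO.

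The spread between libraries of a genotype was not used to choose the genes, and it differed among them. In Armc5 flox the coefficient of variation was 45.4% for *G0s2*, 37.5% for *Aqp7*, 37.4% for *Mgll* and 30.1% for *Lipe*, against 12.9% for *Pnpla2* and 9.69% for *Pde3b*. The median over 6944 genes with a mean of at least 10 FPKM was 17.7% in Armc5 flox and 13.5% in AdArmc5 KO. In AdArmc5 KO it was 29.8% for *Mgll*, 29.1% for *Lipa*, 28.8% for *Aqp7*, 21.4% for *Pde3b* and 20.6% for *G0s2*, against 13.4% for *Pnpla2* and 11.98% for *Lipe*.

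Armc5 flox replicate 1 had the lowest value among the 3 Armc5 flox libraries for all 8 genes, as it had for 39.2% of all genes tested. In 7 genes replicate 2 was the highest of the 3, followed by replicate 3 (16.1% of all genes), and in *G0s2* replicate 3 was the highest, followed by replicate 2 (23.1%). In AdArmc5 KO the genes divided. *G0s2*, *Pnpla2*, *Abhd5* and *Pde3b* were highest in the library labelled replicate 3 and lowest in replicate 2 (18.0% of all genes), whereas *Mgll*, *Aqp7* and *Lipa* were highest in replicate 1 and lowest in the library labelled replicate 3 (20.2%). *Lipe* was highest in replicate 1 and lowest in replicate 2.

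**Figure D3:**
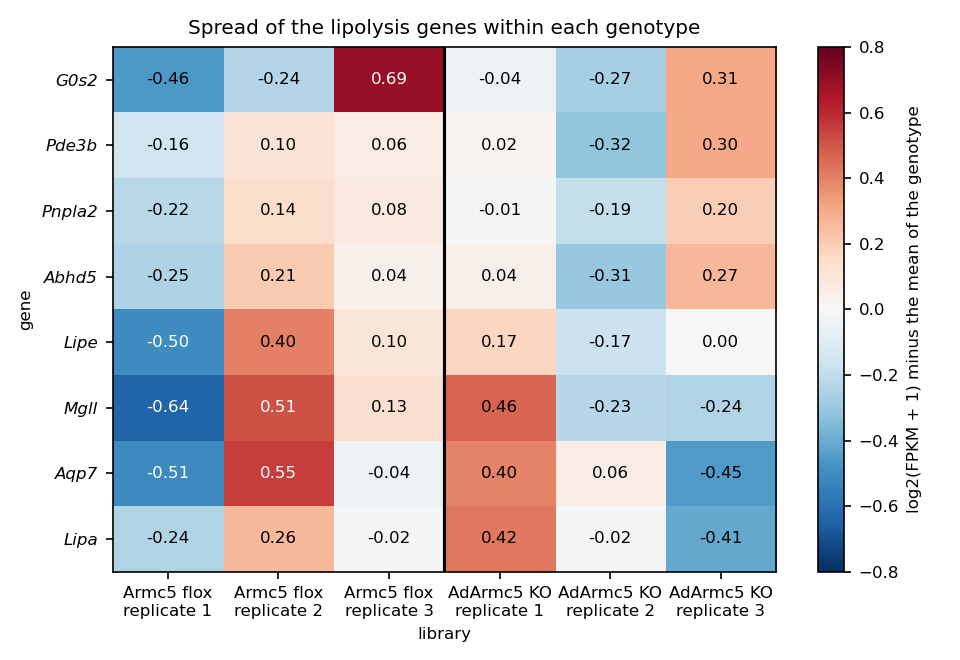
Deviation of log2(FPKM + 1) from the mean of the genotype for the 8 lipolysis genes (rows) in the 6 libraries (columns), in red where a library is above and in blue where it is below that mean, with the value printed in each cell. *Pde3b*, *Pnpla2* and *Abhd5* deviate alike, as do *Mgll*, *Aqp7* and *Lipa*, and the largest deviation is that of *G0s2* in Armc5 flox replicate 3, at 0.69.

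As a description over 6 libraries, which share depth and cell mix within each library, the deviations from the genotype means correlated at 0.98 (Pearson's r) between *Pnpla2* and *Abhd5*, at 0.96 between *Abhd5* and *Pde3b*, and at 0.94 between *Lipe* and *Mgll*. *Aqp7* and *Lipa* correlated at 0.93, and *Mgll* with these at 0.91 and 0.84. *G0s2* was nearer to *Pnpla2*, *Pde3b* and *Abhd5*, at 0.63, 0.58 and 0.51. With *Mgll*, *Aqp7* and *Lipa* it correlated at 0.24, −0.11 and −0.16. Among 6943 other genes with a mean of at least 10 FPKM, those most like *G0s2* in these deviations were *Pth1r*, *Vcp*, *Slc25a4*, *2310045N01Rik* and *Mkrn2*, each at 0.998 or more, and 16.3% of the genes passed 0.9. Those most like *Pnpla2* were *Phka2*, *Camta2*, *Cnot8*, *Mon2* and *Ifit3*, at 0.98 to 0.99, and 2.09% of the genes passed 0.9.

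The genes around the 8 were taken as 56 others of the droplet surface, the receptors, cyclic AMP and insulin signals, further lipases and the use of the products, of which 54 passed the filter and *Adra2a* and *Prkg1* did not. Of the 54, 33 had a log2 difference below 0 and 21 above 0, with a median of −0.13 against −0.03 over all genes tested. The share above 0 was 38.9%, beside 43.5% of all genes tested, so the counts by role below are not set against an even split. By limma, 0 of 54 had an adjusted p under 0.05 and 2 had an unadjusted p under 0.05, *Plin4* and *Npr1*, both lower in AdArmc5 KO (1.18% of all genes were lower at that level). For 4 of them all AdArmc5 KO values were under all Armc5 flox values, beside 5.26% of all genes, and for 0 they were all over them, beside 3.54%. The median was −0.31 without Armc5 flox replicate 1 and −0.03 without Armc5 flox replicate 3. Each gene of this list given below with a log2 difference had an adjusted p of 0.98 by limma.

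At the droplet surface, 3 of 7 genes were below 0 and 4 above. *Plin4*, a perilipin of new droplets, was at 789, 1077 and 946 FPKM in Armc5 flox and at 618, 405 and 646 FPKM in AdArmc5 KO. Its groups did not overlap, and its log2 difference was −0.77 (SE 0.25). *Cidec* and *Cidea*, whose products fuse droplets, had −0.74 (SE 0.37) and −0.59 (SE 0.49), with groups that overlapped.

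Of the receptors, 5 of 10 were below 0 and 5 above. *Npr1*, the receptor gene through which natriuretic peptides drive lipolysis, was at 37.6, 43.9 and 72.0 FPKM in Armc5 flox and at 31.574, 32.995 and 31.511 FPKM in AdArmc5 KO. Its AdArmc5 KO values were nearly equal and below all Armc5 flox values, with a log2 difference of −0.60 (SE 0.24). *Ptger3*, which encodes a prostaglandin receptor that lowers cyclic AMP, had −0.83 (SE 0.61), and *Insr*, the insulin receptor gene, −0.36 (SE 0.20).

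Of the genes of cyclic AMP and protein kinase A, 9 of 15 were below 0 and 6 above. *Prkar1a*, a regulatory subunit of the kinase, had groups that did not overlap, at 96.2, 97.3 and 102.1 FPKM in Armc5 flox and 85.4, 84.8 and 94.1 FPKM in AdArmc5 KO. Its log2 difference was only −0.16 (SE 0.12). *Pde4b*, another cyclic AMP phosphodiesterase, had −0.32 (SE 0.31), and *Akap1*, which anchors the kinase at mitochondria, −0.23 (SE 0.20).

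Of the genes of the insulin signal, 5 of 7 were below 0 and 2 above. The insulin receptor substrates went apart in sign, with −0.53 (SE 0.28) for *Irs1* and 0.71 (SE 0.43) for *Irs2*, and neither passed the test. *Akt1*, a kinase of the same signal, had −0.31 (SE 0.19).

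Of the other lipases, 5 of 7 were below 0 and 2 above. *Ddhd2* had groups that did not overlap, at 18.7, 22.5 and 31.95 FPKM in Armc5 flox and at 18.0, 17.3 and 18.7 FPKM in AdArmc5 KO, with a log2 difference of −0.38 (SE 0.20). *Abhd6*, another monoglyceride lipase, had −0.42 (SE 0.20) and *Ces1f*, a carboxylesterase, −0.94 (SE 0.62).

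Of the genes that use the products, 6 of 8 were below 0 and 2 above. *Fabp5*, a fatty acid binding protein, had 0.67 (SE 0.31), *Pck1*, which makes glycerol 3-phosphate for re-esterification, had −0.69 (SE 0.52), and *Acsl1*, an acyl-CoA synthetase, had −0.25 (SE 0.37). None of these was past the test.

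**Figure D4:**
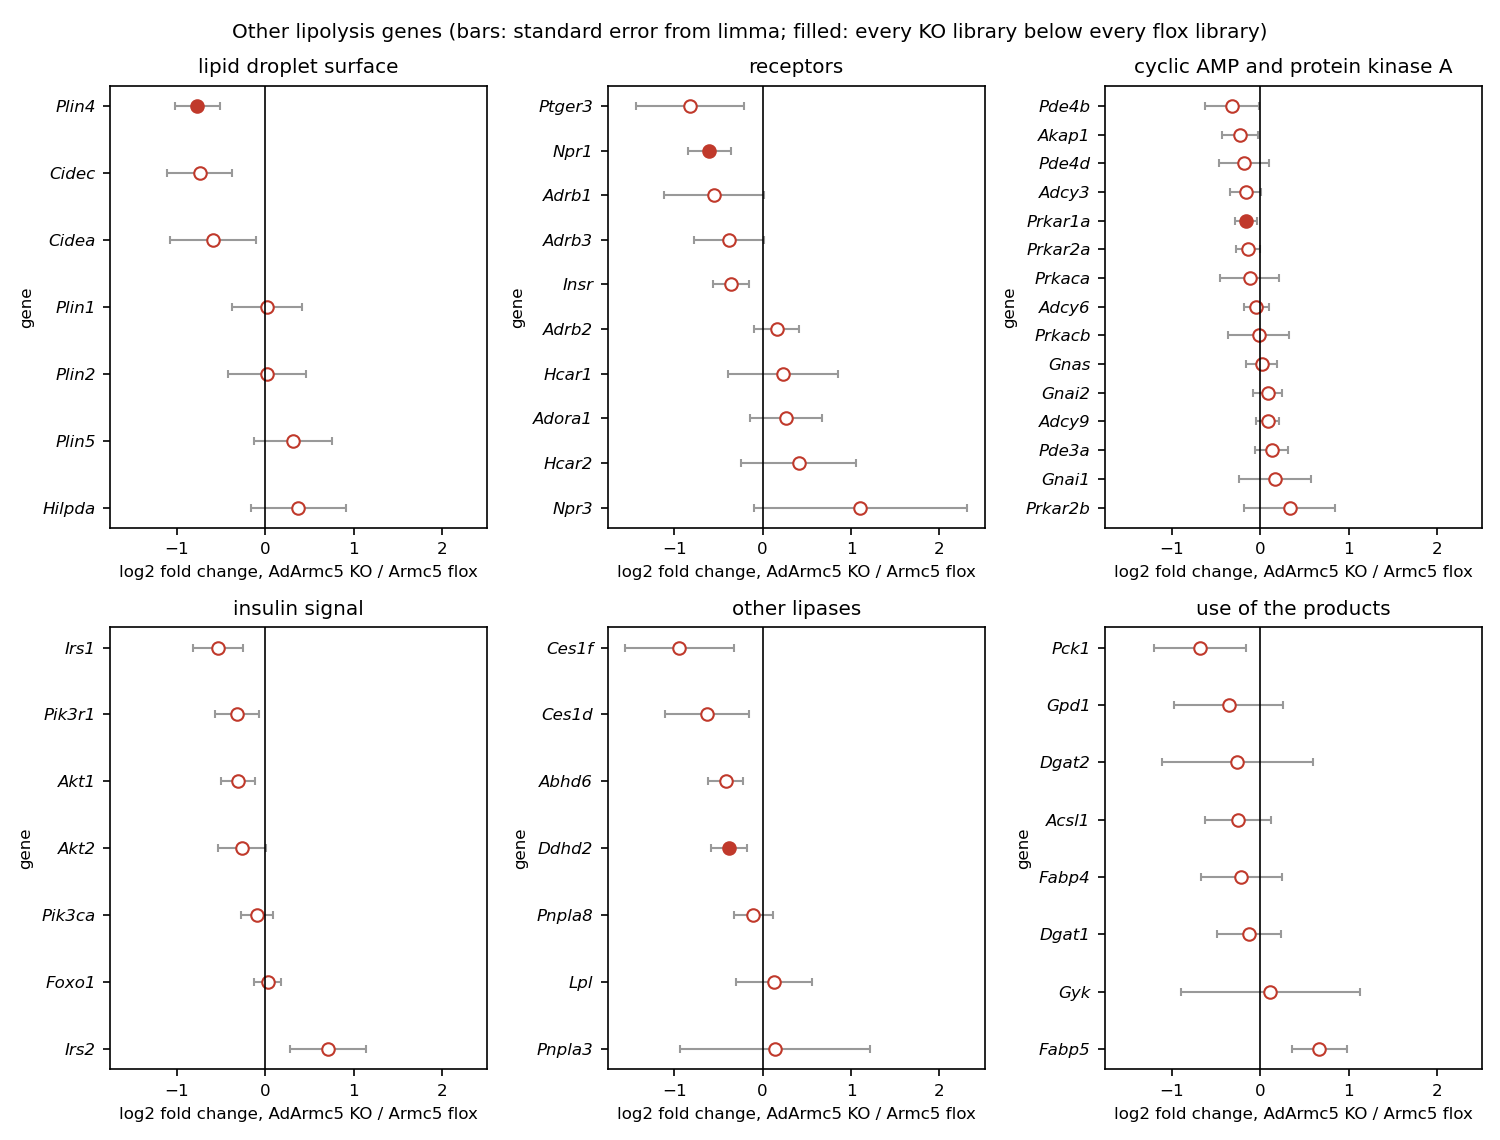
Log2 difference of AdArmc5 KO against Armc5 flox (horizontal axes) for 54 further genes of lipolysis in 6 panels by role, with bars for the standard error from limma. The 4 filled points (*Plin4*, *Npr1*, *Prkar1a* and *Ddhd2*) are genes whose AdArmc5 KO libraries all lay below the Armc5 flox libraries, and 0 of the 54 had an adjusted p under 0.05.

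Around *Lipa*, 12 lysosomal genes had 5 log2 differences below 0 and 7 above, with a median of 0.08 against −0.03 over all genes tested. By limma, 0 of 12 had an adjusted or an unadjusted p under 0.05. Among those with the smallest p were *Npc2*, which carries cholesterol out of lysosomes, at 0.58 (SE 0.36), and *Ctsl*, a cathepsin, at 0.51 (SE 0.32), each with an adjusted p of 0.98 by limma. *Npc2* was at 124, 218 and 130 FPKM in Armc5 flox and at 339, 234 and 150 FPKM in AdArmc5 KO, in the same order of libraries within each genotype as *Lipa* and the summed macrophage markers. Of all genes tested, 16.1% had this order in Armc5 flox and 20.2% in AdArmc5 KO. What sets the order was not tested.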

How the data were processed

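FPKM of 3 Armc5 flox and 3 AdArmc5 KO libraries of refed epididymal WAT were compared. Genotype and replicate number came from the submitters' labels, and age and feeding from the paper. The authors mapped stranded poly(A) reads of 100 bases to mm10 with TopHat2 2.0.13, Bowtie2 2.2.3 and SAMtools 0.1.19, and made the deposited FPKM with Cuffnorm 2.2.1, whose scaling between libraries they carry. Their gene annotation is not given in the sources used here. A deposited normalized count is a signal made by dividing fragments by a library's factor. Of the values below 1000 fragments, 98.6% to 98.9% were whole numbers of fragments to within 0.1, which gave the depths. Since this was not so for all genes, no test for counts was run. The authors' group means, fold changes and p-values, and 6 further columns of per-sample values, were not used.

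Genes with at least 1 FPKM in at least 3 of the 6 libraries (12670) were fitted as log2(FPKM + 1) with limma (version 3.58.1, R version 4.3.3), with genotype as the only term and a mean-variance trend, and p-values were adjusted by Benjamini and Hochberg. A fold change on this scale understates the change of low genes. With 3 libraries a genotype, the smallest p of an exact permutation test is 0.1. The replicates are separate mice. The 8 genes, the gene lists and the markers were chosen with earlier results of these data known. All 8 genes are named. Up to 3 genes of each role in the other lists with the smallest p are named where none passes an adjusted p of 0.05, and the 5 genes most like *G0s2* or *Pnpla2* in their deviations. A gene under this rule is not reported here. Genes were placed on GRCm38.p6 by RefSeq, and overlapping genes were read from GENCODE.

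Other settings tried were a pseudocount of 0.1 or 0.5, the filter dropped or met in 1 library, quantile normalization or the trimmed mean of M values, no trend, the replicate number as a block, normalized counts of at least 10, adipocyte markers as a covariate, each library left out in turn, and both ciliated cell libraries left out. For the ratio, the ratio of group means was a further one.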

Additional observations from a re-analysis of the deposited data

How the results depend on the processing

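The count of genes with an adjusted p under 0.05 was 0 under all 17 alternatives, and the count with an unadjusted p under 0.05, 425, ran from 274 (without AdArmc5 KO replicate 1) to 637 over the fits without 1 library and was 669 without the filter. The log2 difference of *G0s2* was −1.51 to −0.93 with 1 library left out and −1.37 to −1.20 under the other alternatives, and that of its ratio to *Pnpla2* −1.22 to −0.72 and −1.11 to −1.03. The number of the 8 genes lower in every AdArmc5 KO library was 2 to 3. Left-out libraries moved *Pde3b* from −0.66 to −0.35, *Pnpla2* from −0.36 to −0.15, *Abhd5* from −0.25 to 0.03, *Lipe* from −0.06 to 0.39, *Mgll* from −0.25 to 0.33, *Aqp7* from 0.09 to 0.62 and *Lipa* from 0.15 to 0.56. For the other lipolysis genes the median was −0.31 to −0.03 with 1 library left out and −0.21 to −0.08 otherwise, and for the lysosomal genes −0.04 to 0.17 and −0.03 to 0.14. With the replicate number as a block, the log2 differences of *G0s2* (−1.28) and of its ratio to *Pnpla2* (−1.03) could not change. Each number holds 1 library of each genotype, so nothing is read from their being equal. In that fit 0 genes had an adjusted p under 0.05 by limma and 575 an unadjusted one. The paper states that littermates were compared, but not that equal numbers mark them. Libraries with the same number had deviations that correlated at −0.53, −0.41 and 0.58. The highest correlation between the genotypes, 0.75, was that of the ciliated cell libraries, Armc5 flox replicate 1 and AdArmc5 KO replicate 2. Such correlations also follow the cell mix, so they cannot settle whether the numbers pair the mice.

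Counting error was at most 1.69% of a value for the 8 genes. A leave-one-out fit leaves 2 libraries in a genotype.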
